A study of Mus musculus with 6 samples.

Results

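The integrated stress response was examined through 10 genes of the eIF2α-ATF4 pathway, taken by symbol from the count table of whole mouse lenses. They were Ppp1r15a, Ppp1r15b, Atf4, Atf3, Ddit3, Trib3, Chac1, Asns, Sesn2 and Ddit4. They occupied 11 of the 55416 rows, because the symbol Ddit3 stands on 2 rows, and 6 of the 10 genes had enough counts to be among the 11474 genes tested. Each of the 6 samples held 2 lenses. In 3 samples the mice carried a germline Cd24a deletion (strain label C57BL/6), and 3 samples came from wild-type mice (strain label C57BL/har). A germline deletion removes Cd24a from every cell of the animal, and the sources used here do not say how many animals gave the lenses of a sample. No treatment is named. The mice were 8 weeks old by the sample labels and 7 weeks old by the series text. Strain and genotype cannot be told apart in this design.

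In the integrated stress response, 4 kinases sense different stresses and phosphorylate the α subunit of the initiation factor eIF2. This lowers general translation but favours the mRNA of the transcription factor ATF4, which raises genes for amino acid supply, redox balance and, under lasting stress, cell death. PPP1R15A (GADD34), itself induced by the response, and the constitutive PPP1R15B (CReP) guide protein phosphatase 1 to eIF2α and end the signal. ATF4 is controlled mainly by translation, so its mRNA level is not a readout of its activity. The lens grows throughout life, its fibre cells make very large amounts of protein before losing their organelles, and activation of this pathway has been linked to cataract in mice.

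ATF4 with a C/EBP partner binds C/EBP-ATF response elements, written here as TGATGNAA, and CREB and ATF dimers bind the cyclic AMP response element TGACGTCA. Both strands of the 300 bases around the start (250 before, 50 after) were searched in RefSeq promoters on GRCm38.p6, which held an entry for 9 of the 10 genes, all but Ppp1r15b. The 30-base stretches below are shown because they hold every match found in a member's window. Capitals mark the match, and each runs 5′ to 3′ on the gene's strand. The response element had a match in 4 of 9 members (Atf3, Chac1, Trib3 and Asns) and in 3.97% of all 32851 promoters, and the cyclic AMP element in 1 of 9 (Ppp1r15a) and in 1.79% of all promoters.
Ppp1r15a, chr7:45526269-45526298, minus strand: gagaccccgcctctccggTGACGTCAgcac
Atf3, chr1:191183425-191183454, minus strand: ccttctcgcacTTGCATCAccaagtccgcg
Chac1, chr2:119351038-119351067, plus strand: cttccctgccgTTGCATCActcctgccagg
Trib3, chr2:152344028-152344057, minus strand: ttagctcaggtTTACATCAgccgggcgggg
Asns, chr6:7693214-7693243, minus strand: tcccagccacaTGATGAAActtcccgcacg
The Ppp1r15a match covered bases -12 to -5 from the start, and a palindrome reads alike on both strands. The Asns match lay on the gene's own strand, and those of Atf3, Chac1 and Trib3 on the opposite strand, where the element reads in reverse complement. Atf4, Ddit3, Sesn2 and Ddit4 had no match of either motif in this window. A match is a description of the letters and not evidence of binding.

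The libraries held 5384542 to 7302951 gene counts, and every knockout library had lost nearly all Cd24a reads, with 45 to 71 counts against 17514 to 20656 in wild type. Replicate 3 of each group had abundant Xist reads (350 and 454 CPM of the raw library total) and the other 4 libraries at most 0.587 CPM. All CPM values from here on were scaled by TMM. Lens fibre markers summed to 311256 to 332486 CPM in the wild-type libraries and 281972 to 318077 CPM in the knockout libraries, although Lim2, of 13 such markers, had no count in any library. Whether the Lim2 value reflects its RNA or the way reads were assigned to that row was not tested. Samples of a group are biological replicates by the series text.

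Ppp1r15a, Atf4 and Ddit3 fell in the knockout, none of the 6 tested members rose, and Ppp1r15b, Ddit4 and Asns did not pass the test. In whole lenses, fewer cells of a type and less RNA per cell cannot be told apart. A gene passed at an adjusted p of at most 0.05 in the edgeR quasi-likelihood test, adjusted over all tested genes. That test called 7.50% of all tested genes, 4.48% of them lower and 3.02% higher in the knockout, so 3 of 6 tested members called lower stands against a background of 4.48%. Over all genes the split was 514 lower and 347 higher as reported, and 336 lower and 1008 higher with library size alone, where 2 members, Ppp1r15a and Atf4, were called lower. Before adjustment, 3 members had p of at most 0.05, all lower. DESeq2 and limma-voom each called Ppp1r15a and Atf4 lower, did not call Ddit3, and called no member higher. The call of Ddit3 was lost in 8 of the 17 other settings. The median log2 fold change of the 6 tested members was -0.39, against 0.0043 for all tested genes. The 4 untested members were too scarce, so the 6 are not the whole pathway. Members and the lists below were chosen with earlier results of these data known, so their counts are descriptions and no test.

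**Figure D1:**
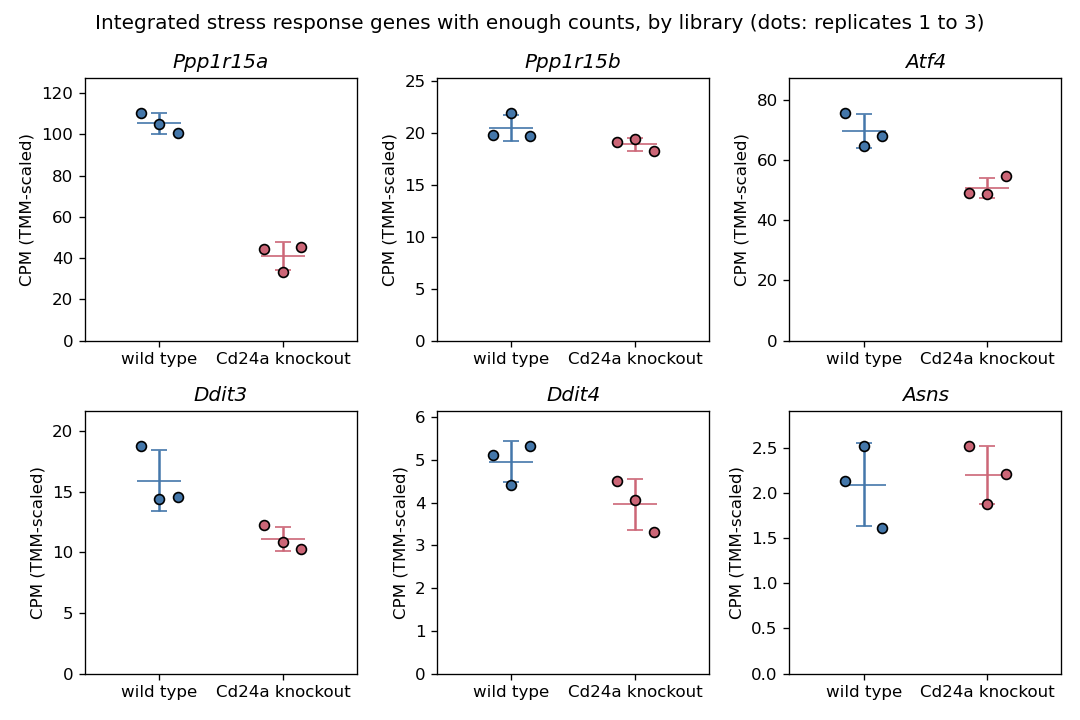
TMM-scaled CPM (vertical axis, from 0) of the 6 tested members in 3 wild-type and 3 knockout libraries; dots are libraries, horizontal bars group means and whiskers 1 SD. Ppp1r15a ran from 100.4 to 111 CPM in wild type and from 33.2 to 45.4 CPM in the knockout, and the groups overlap only for Ddit4 and Asns. Of all tested genes 12.4% had knockout libraries wholly below the wild-type ones, and Ppp1r15b did not pass the test.

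Ppp1r15a (ENSMUSG00000040435, chromosome 7), the inducible eIF2α phosphatase subunit, had the largest difference among the members. Its wild-type libraries were at 111, 105 and 100.4 CPM and its knockout libraries at 44.2, 33.2 and 45.4 CPM. The groups were far apart, and knockout replicate 2 was the lowest library. The underlying counts were 776, 664 and 621 against 246, 212 and 247. The means were 105 ± 5.06 and 41.0 ± 6.74 CPM (SD, n = 3 each), a 2.58-fold difference. On the log2 scale the fold change was -1.37 (SE 0.09, 95% interval -1.56 to -1.18, edgeR adjusted p = 2.70e-09). Over all the settings tried it lay between -1.49 and -1.23 and passed each time. On the annotation used here, the gene shares 12 exonic bases with Tulp2 on the opposite strand, which had 7 counts in all wild-type libraries together and 3 in the knockout.

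Ppp1r15b (ENSMUSG00000046062, chromosome 1), the constitutive subunit, did not pass the test. It was at 19.8, 21.9 and 19.7 CPM in wild type and 19.1, 19.4 and 18.2 CPM in the knockout. Although the groups did not overlap, all 6 libraries lay between 18.2 and 21.9 CPM, and 12.4% of all tested genes had knockout libraries wholly below the wild-type ones. The log2 fold change of -0.11 (SE 0.11, 95% interval -0.35 to 0.12, edgeR adjusted p = 0.645) did not pass, and it was -0.0029 with library size alone. The lower end of the interval, -0.35, lies above the interval of Ppp1r15a. The gene shares 640 exonic bases with the transcript Gm26616 on the opposite strand, which had 4 counts in wild type and 0 in the knockout.

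The ratio of these subunits within a library does not depend on how libraries are scaled. There were 5.58, 4.78 and 5.09 Ppp1r15a counts for each Ppp1r15b count in wild type and 2.32, 1.71 and 2.49 in the knockout. Every knockout library was below every wild-type library. The ratio was 2.39-fold lower in the knockout (exact permutation p = 0.10, two-sided, the smallest that 20 arrangements allow; adjusted p = 0.20 over 4 ratios of members).

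Atf4 (ENSMUSG00000042406, chromosome 15), the central transcription factor, fell by a smaller amount. Its libraries were at 75.8, 64.7 and 68.1 CPM in wild type and 48.9, 48.6 and 54.6 CPM in the knockout. The groups did not overlap, and wild-type replicate 1 was the highest library. The means of 69.5 ± 5.66 and 50.7 ± 3.40 CPM (SD, n = 3 each) differed by -0.46 on the log2 scale (SE 0.08, 95% interval -0.63 to -0.29, edgeR adjusted p = 8.66e-04). Its call held under every setting tried, with log2 fold changes of -0.53 to -0.35. Set against Atf4 within each library, there were 1.46, 1.62 and 1.48 Ppp1r15a counts per Atf4 count in wild type and 0.904, 0.684 and 0.832 in the knockout. That ratio was 1.89-fold lower, with no overlap (exact permutation p = 0.10, adjusted p = 0.20).

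Ddit3 (ENSMUSG00000025408, chromosome 10), which encodes CHOP, a pro-apoptotic transcription factor that ATF4 induces, was called lower by a narrow margin. Its libraries were at 18.8, 14.4 and 14.6 CPM in wild type and 12.2, 10.8 and 10.3 CPM in the knockout. The groups did not overlap, and wild-type replicate 1 stood above the other libraries. The log2 fold change was -0.52 (SE 0.15, 95% interval -0.84 to -0.20, edgeR adjusted p = 0.0403). The call was lost without wild-type replicate 1 (log2 -0.38, adjusted p = 0.241), without knockout replicate 1 (0.0648), 2 (0.100) or 3 (0.119), without both Xist-rich libraries (0.109), and with library size alone (0.105), DESeq2 (0.173) or limma-voom (0.0514). The libraries held 0.248, 0.222 and 0.214 Ddit3 counts per Atf4 count in wild type and 0.250, 0.223 and 0.189 in the knockout, with overlapping groups (exact permutation p = 0.90, adjusted p = 0.90).

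The counting of Ddit3 has a limit. The other row of that symbol, ENSMUSG00000116429, is a 105 bp feature with 0 counts in all 6 libraries, and all 105 bases lie within exons of the main row. Ddit3 also shares 68 exonic bases with the methionyl-tRNA synthetase gene (Mars1 in the count table, Mars on the annotation) on the opposite strand, which had 391 counts in wild type and 288 in the knockout. How reads in shared bases were counted was not tested, and the strand setting is not stated by the sources at hand. Ddit3 and Ddit4 lie on the chromosome of Cd24a, 83.7 and 16.4 Mb away on GRCm38. Whether flanking sequence of the targeted locus differs between the groups at these genes was not tested.

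Ddit4, also on chromosome 10, encodes REDD1, an inhibitor of mTORC1 that also answers hypoxia and glucocorticoids. It was at 5.13, 4.42 and 5.34 CPM in wild type and 4.50, 4.07 and 3.31 CPM in the knockout. Knockout replicate 1 lay above wild-type replicate 2, so the groups overlapped. The log2 fold change of -0.32 (SE 0.25, 95% interval -0.85 to 0.21, edgeR adjusted p = 0.544) did not pass. With 18 to 36 counts per library, a fall the size of that of Atf4 lies within this interval.

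Asns, asparagine synthetase and a classical amino acid response gene, was at 2.14, 2.52 and 1.62 CPM in wild type and 2.52, 1.88 and 2.21 CPM in the knockout. The groups overlapped almost fully. Its log2 fold change was 0.06 (SE 0.36, 95% interval -0.69 to 0.81, edgeR adjusted p = 0.951), and its sign turned without wild-type replicate 3, without knockout replicate 1 and without both Xist-rich libraries. With 10 to 16 counts per library, changes the size of those of Atf4 and Ddit3 lie within this interval.

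The remaining members were at or near the limit of detection. Sesn2, a stress-induced sestrin that restrains mTORC1, had 10, 9 and 12 counts in wild type and 4, 3 and 8 in the knockout. The libraries overlapped on the CPM scale, and the knockout level was 0.544 of the wild-type level, with an exact 95% counting interval of 0.273 to 1.04. When it was tested, with at least 1 CPM in 3 libraries as the filter, Sesn2 had a log2 fold change of -0.86 and an edgeR adjusted p of 0.382.

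Atf3, a transcription factor rapidly induced by many stresses, had 2, 1 and 2 counts in wild type and 0, 3 and 1 in the knockout. Its ratio was 0.899 with a counting interval of 0.178 to 4.18, so these counts say nothing of its direction. Chac1, a glutathione-degrading enzyme strongly induced by ATF4, had 2 counts in wild-type replicate 1 and 0 in the other 5 libraries. Trib3, a pseudokinase that dampens the response, had 0 counts in all 6 libraries, which allows up to 0.153 CPM in the pooled wild-type libraries and 0.172 CPM in the pooled knockout libraries. These limits cover counting error only.

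Levels per length place the members on 1 scale, in CPM per kilobase of exon (FPKM). In wild type the order was Ppp1r15a (35.8 ± 1.72), Atf4 (29.5 ± 2.40), Ddit3 (9.29 ± 1.46), Ppp1r15b (3.66 ± 0.22), Ddit4 (2.83 ± 0.27), Asns (0.765 ± 0.17), Sesn2 (0.459 ± 0.086), Atf3 (0.119 ± 0.040), Chac1 (0.058 ± 0.10) and Trib3 (0), as mean ± SD of 3 libraries. Neighbours in this order did not overlap down to Sesn2 and Atf3, whereas Atf3 and Chac1 overlapped. In the knockout Atf4 came first with 21.5 ± 1.44 FPKM and Ppp1r15a second with 13.9 ± 2.29 FPKM, again without overlap. The lower members followed in the same order as in wild type, with Ddit3 at 6.49 ± 0.58, Ppp1r15b at 3.38 ± 0.11, Ddit4 at 2.26 ± 0.34 and Asns at 0.805 ± 0.12 FPKM.

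The authors' deposited table listed the same 6 members and gave a q-value under 0.05 to 3 of them, Ppp1r15a, Atf4 and Ddit3. Of these, 1, Ppp1r15a, had a deposited fold over 2 in the authors' deposited table. In the authors' deposited table the fold of Ppp1r15a was -2.58, that of Atf4 -1.37 and that of Ddit3 -1.44, on a signed scale where a minus sign means lower in the knockout.

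Of 12 eIF2α kinases, eIF2 subunits and eIF2B subunits, all 12 were tested, 1 was called higher and 0 lower (before adjustment 2 higher and 0 lower had p of at most 0.05, and DESeq2 and limma-voom each called 0 lower), a share near the 7.50% of all tested genes. The called gene was Eif2b5, the catalytic subunit of the nucleotide exchange factor that phosphorylated eIF2 inhibits. It was at 42.6 ± 3.97 CPM in wild type and rose to 56.8 ± 8.62 CPM (SD, n = 3 each; log2 fold change 0.42, SE 0.10, edgeR adjusted p = 0.0112), and lost its call without wild-type replicate 1 (0.0786) or knockout replicate 2 (0.0711). The 4 kinases Eif2ak1, Eif2ak2, Eif2ak3 (PERK) and Eif2ak4 (GCN2) had log2 fold changes of 0.13, 0.31, 0.02 and -0.16 and none passed. Eif2s1, eIF2α itself, was at 125 ± 4.84 and 123 ± 5.12 CPM. Among 7 phosphatase 1 catalytic subunits and kinase regulators, Ppp1ca, a catalytic partner of both PPP1R15 proteins, was at 68.3 ± 1.07 CPM and rose to 88.1 ± 2.97 CPM (log2 fold change 0.37, SE 0.07, edgeR adjusted p = 0.00104). The other 6 did not pass, and 3.02% of all tested genes were called higher.

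Partners of ATF4 in basic leucine zipper dimers included 2 calls, both lower, among 9 tested of 12. Over all tested genes the share called lower was 4.48%. Cebpb, a C/EBP factor that pairs with ATF4, was at 6.27, 6.95 and 5.50 CPM in wild type and 2.16, 2.04 and 2.39 CPM in the knockout. The groups were well separated at this low level, and the log2 fold change was -1.50 (SE 0.27, edgeR adjusted p = 9.72e-04). Atf5, a close relative of ATF4 and itself one of its targets, was at 10.1, 5.37 and 10.2 CPM against 4.14, 4.86 and 5.15 CPM (log2 -0.86, SE 0.25, edgeR adjusted p = 0.0385). Wild-type replicate 2 of Atf5 lay close to the knockout libraries, and the call was lost in 9 of the 17 other settings, among them without wild-type replicate 1 (0.202) or 3 (0.160) and without any 1 knockout library (0.0516 to 0.163). Cebpg, another C/EBP partner, had log2 -0.25 and did not pass.

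Other genes known as ATF4 targets were lower in part. Of 35 listed, 29 were tested, 6 fell and 0 rose, against 4.48% of all genes called lower. The list was chosen with earlier results of these data known, so this count is a description and no test. Before adjustment, 10 had p of at most 0.05, all lower, and DESeq2 and limma-voom each called 5 lower and 0 higher. Their median log2 fold change was -0.15, and 18 of the 29 lay below 0. The other 23 did not pass. Among the 6 untested targets, Gdf15 had 2, 1 and 2 counts in wild type and 5, 5 and 7 in the knockout. Stc2 went the other way, with 7, 10 and 8 counts in wild type and 5, 5 and 3 in the knockout. For the remaining untested targets the groups overlapped.

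Slc7a11, the cystine transporter subunit that also answers NRF2, was at 84.9, 75.4 and 86.5 CPM in wild type and 32.9, 28.8 and 25.7 CPM in the knockout, the lowest log2 fold change of the 29 (log2 -1.50, SE 0.09, edgeR adjusted p = 6.62e-10). Mthfd2, a mitochondrial one-carbon enzyme, fell from 26.2 ± 0.18 to 16.8 ± 3.04 CPM (log2 -0.64, SE 0.12), and Phgdh, the first enzyme of serine synthesis, from 97.1 ± 6.93 to 73.2 ± 4.01 CPM (log2 -0.41, SE 0.07). Gadd45a, a growth arrest gene, fell from 116 ± 5.20 to 76.3 ± 4.94 CPM (log2 -0.61, SE 0.07), and Nupr1, a stress-induced chromatin protein, from 589 ± 16.2 to 451 ± 10.1 CPM (log2 -0.39, SE 0.05). For these 5 genes, named because they were called lower, no knockout library reached a wild-type library. The same held for 12.4% of all tested genes.

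Other targets of the same functions did not pass. Psat1, Psph and Shmt2, which act with Phgdh and Mthfd2 in serine and one-carbon metabolism, had log2 fold changes of -0.17, -0.30 and -0.21, and none passed. Slc38a2 and Slc3a2, amino acid transport genes, were at 0.09 and -0.05. Slc38a2 was the 1 target called higher with library size alone (edgeR adjusted p = 0.0361). Of 20 cytosolic aminoacyl-tRNA synthetases, several of them ATF4 targets, Hars fell (log2 -0.65), Qars and Kars rose (log2 0.37 and 0.27) and 17 did not pass, with the call of Kars lost in 8 of the 17 other settings. Their median was -0.0024, and over all tested genes 4.48% were called lower and 3.02% higher.

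**Figure D2:**
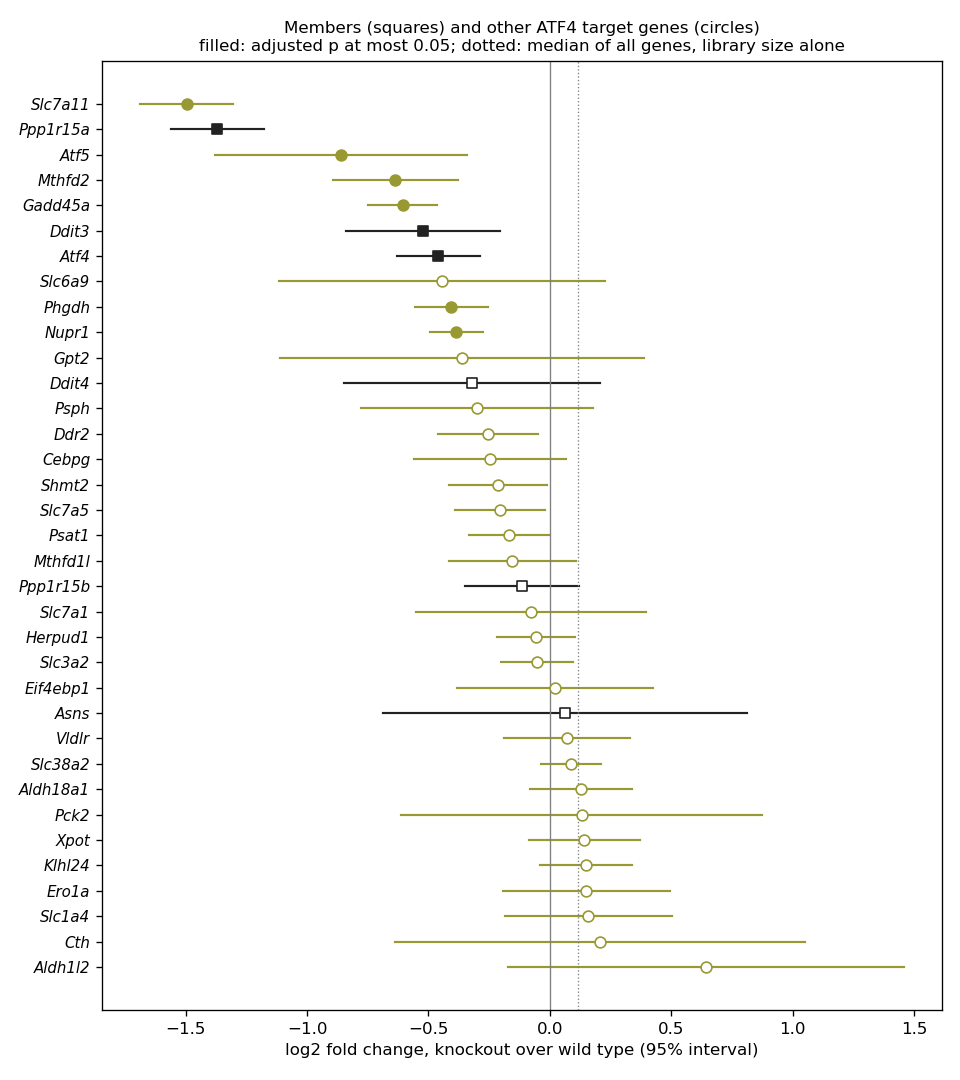
Log2 fold change, knockout over wild type, with 95% intervals (horizontal axis) for the 6 tested members (squares) and 29 other ATF4 targets (circles); filled marks passed the test and the dotted line is the median of all genes with library size alone. Slc7a11 and Ppp1r15a lie apart at -1.50 and -1.37, and every filled mark is on the lower side.

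Neighbouring stress programmes that share genes with the pathway were read from the same fit. Of 19 tested genes of the ATF6 and IRE1-XBP1 arms of the unfolded protein response, 6 fell and 0 rose, against 4.48% of all tested genes called lower (before adjustment 9 had p of at most 0.05, all lower, and DESeq2 called 3 lower), with a median of -0.17. They were Hspa5, Pdia6, Creld2, Xbp1, Manf and Dnajb11, all of the endoplasmic reticulum except the transcription factor Xbp1. Creld2 had the lowest value, 9.26 ± 2.15 CPM against 17.4 ± 2.21 CPM in wild type (log2 fold change -0.90, SE 0.17, edgeR adjusted p = 0.00139). Xbp1 itself had log2 -0.50 (edgeR adjusted p = 0.0145) and lost its call in DESeq2 (0.0584), with library size alone (0.0520), and without wild-type replicate 2 (0.0509) or 3 (0.0623) or knockout replicate 2 (0.0958). Manf and Dnajb11 each lost the call in 6 of the 17 other settings, among them library size alone (0.0768 and 0.125), DESeq2 (0.0648 and 0.126), and without wild-type replicate 2 (0.101 and 0.0809) or 3 (0.0820 and 0.0531). Manf also lost it without knockout replicate 2 (0.0971), Dnajb11 without knockout replicate 1 (0.108), and both without the Xist-rich libraries (0.0994 and 0.0506). Hspa5, Pdia6 and Creld2 passed in all 18 settings, and library size alone called 1 gene of the list higher, Atf6 (0.0497).

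Genes that share other inducers with the members are given list by list, against 4.48% of all tested genes called lower and 3.02% called higher. Among 20 tested mTORC1 pathway genes Tsc2 and Mtor were called lower (log2 -0.37 and -0.22), with the call of Mtor lost in 15 of the 17 other settings. Among 11 p53 targets Mdm2 fell (log2 -0.37), among 13 hypoxia targets Ndrg1 and Higd1a were called lower (log2 -0.24 and -0.35, the call of Higd1a lost in 7 of the 17 other settings), and among 11 glucocorticoid-induced genes Cdkn1c rose (log2 0.35). Among 12 immediate early genes, a class to which Atf3 and Ppp1r15a also belong in many cells, Klf6 rose (log2 0.53) and Ccn2 fell (log2 -0.81). Of 18 NRF2 targets Hmox1, Slc7a11 and Tkt were lower (log2 -1.79, -1.50 and -0.21; Tkt lost its call in 7 of the 17 other settings) and Fth1 higher (log2 0.34). Of 10 mitochondrial stress genes Trap1 alone was called, higher (log2 0.92). The medians of these lists lay between -0.14 and 0.02.

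**Figure D3:**
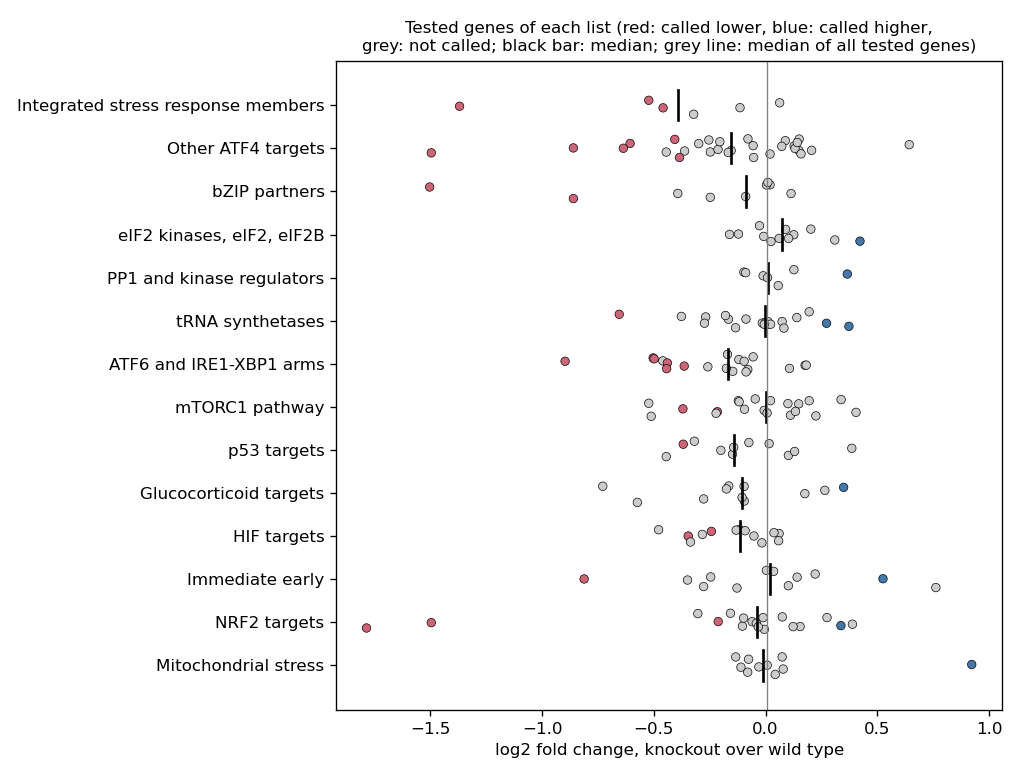
Log2 fold change, knockout over wild type (horizontal axis), of every tested gene in the member list and 13 related lists; red dots were called lower, blue dots higher, grey dots did not pass, and black bars are list medians. The member median is -0.39, while the other medians range from -0.17 to 0.08.

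The genes whose log2 CPM followed that of Ppp1r15a most closely over the 6 libraries were Ube2o, Snx22, Ccdc180, Ncstn and Osbp2, with Pearson r of 0.9997, 0.9996, 0.9993, 0.998 and 0.996. These values share the step between the genotypes and the low value of knockout replicate 2, and they are a description with no test. Ccdc180, for example, was at 110, 106 and 95.9 CPM in wild type and 35.4, 24.3 and 38.1 CPM in the knockout. Ncstn, with a log2 fold change of -0.19, did not pass the test of genotype (edgeR adjusted p = 0.234).

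Genes of several cell type marker sets also differed between the groups. The counts of markers called lower stand against 4.48% of all tested genes called lower. Lens epithelial markers were called lower in 6 of 9 tested cases, and their summed level ran from 1554 to 1653 CPM in wild type and from 1238 to 1286 CPM in the knockout. Igfbp7, at 912 to 1000 CPM in wild type and 728 to 756 CPM in the knockout, made up most of that sum. The 6 called were Krt18, Aqp1, Npnt, Gja1, Slc12a2 and Igfbp7, with log2 fold changes of -1.60, -1.45, -0.48, -0.41, -0.41 and -0.34. Pax6, Foxe3 and Cdh1 did not pass, with log2 fold changes of 0.02, 0.05 and -0.24. Lens fibre markers were lower in 5 of 12. Pigment cell markers were lower in 4 of 8 (summed 89.6 to 107 CPM against 55.9 to 69.0) and photoreceptor markers in 2 of 13 (336 to 676 against 338 to 495). The called pigment markers were Rpe65, Rgr, Ttr and Oca2 (log2 -2.51, -1.46, -1.12 and -0.62). Rlbp1, Tyrp1, Mitf and Dct did not pass (log2 -0.85, -0.40, -0.21 and 0.13). Of 4 tested ciliary and smooth muscle markers 1 was lower, Acta2, at 333 to 361 CPM in wild type and 230.0 to 246 CPM in the knockout, and it made up most of the summed level (368 to 380 against 252 to 272 CPM). The other 3, Col9a1, Zic1 and Wfdc1, did not pass, and in knockout replicate 2 each was above every wild-type library, at 23.7, 10.7 and 5.80 CPM. The smooth muscle genes Myh11, Tagln, Des and Cnn1 were too scarce to test. Their means were 1.55, 0.481, 0.053 and 0.047 CPM in wild type and 1.01, 0.330, 0 and 0 CPM in the knockout. Acta2 was thus the only smooth muscle marker with enough counts. Of 2 tested corneal markers 1 was lower, Aldh3a1, at 83.3 to 94.6 CPM in wild type and 56.6 to 75.4 CPM in the knockout, again most of the sum (89.7 to 98.5 against 59.5 to 79.3 CPM). The 7 untested corneal markers had group means of at most 1.32 CPM (Krt15). The corneal keratin Krt12 and the leukocyte genes Cd3e, Cd79a, S100a8 and S100a9 had no count, and leukocyte markers summed to 6.47 to 10.3 CPM in wild type and 3.96 to 9.71 CPM in the knockout. Vessel and blood markers were too scarce to test. Their sum was 2.26 to 4.13 CPM in wild type and 4.97 to 9.17 CPM in the knockout, higher in the knockout without overlap, and the haemoglobin gene Hbb-bs was at 0 in every wild-type library and at 4.14, 0.627 and 0.920 CPM in the knockout. The part of these cell types in the fall of Ppp1r15a, Atf4, Ddit3 and the other ATF4 targets was not tested.

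**Figure D4:**
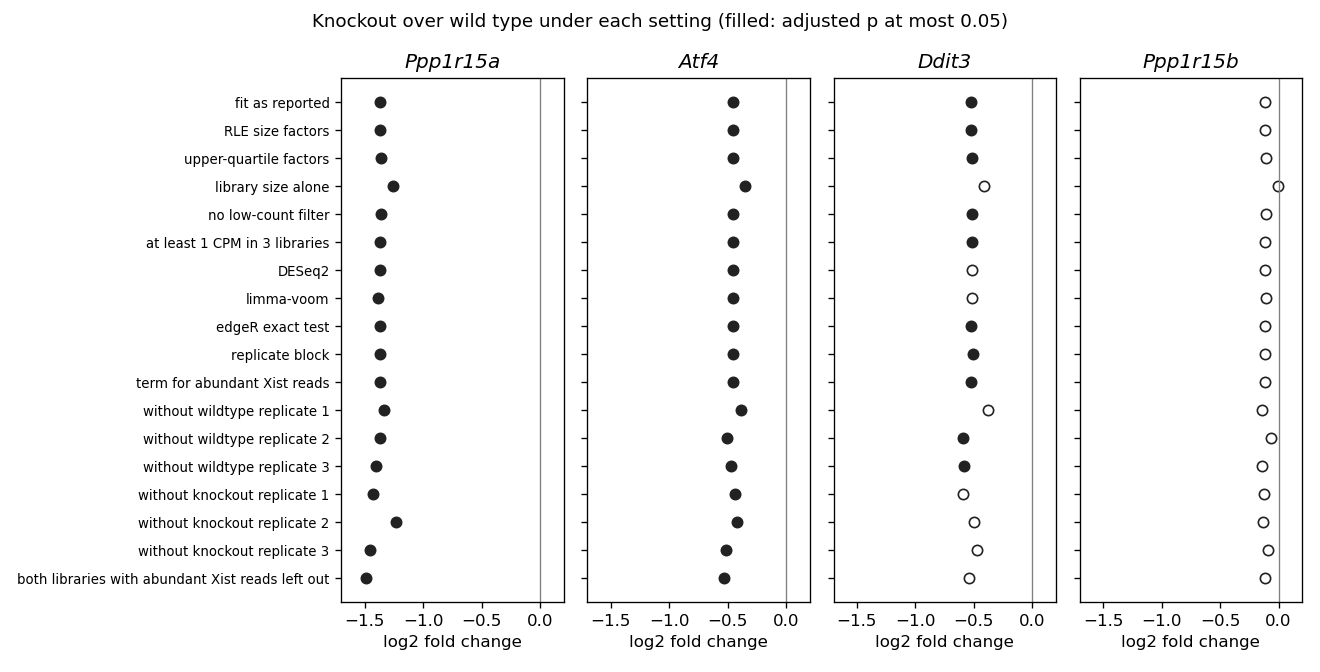
Log2 fold change, knockout over wild type (horizontal axis), of Ppp1r15a, Atf4, Ddit3 and Ppp1r15b in the fit as reported and under 17 other settings (rows); filled marks passed at an adjusted p of at most 0.05. Ppp1r15a and Atf4 passed in all 18, Ddit3 in 10 and Ppp1r15b in none.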

How the data were processed

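Total RNA of whole lenses was made into stranded, ribosome-depleted libraries and sequenced from one end on 4 lanes each, per the labels' protocols. The authors deposited raw counts per gene on Ensembl features, with an exon-union length and a GC fraction per gene (the deposited GC values were not used), per the file headers. Per the submitters' processing notes the build was GRCm39 and the tools included HISAT2, HTSeq and edgeR, with no versions or settings. The authors' deposited comparison holds a signed fold score, p-values with Storey q-values, and mean FPKM per group.

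From the counts, genes were filtered with filterByExpr on genotype, scaled by TMM and tested with the edgeR quasi-likelihood test over all 6 libraries, genotype alone, with Benjamini-Hochberg adjustment (edgeR 4.0.16, limma 3.58.1, DESeq2 1.42.0, R 4.3.3). The script was tested on simulated data. SE is the absolute log2 fold change over √F. FPKM is CPM per kilobase of deposited length; its group means equal the authors'. Exact counting intervals are binomial, at 95%, and libraries carry no molecular identifiers. Libraries of a group differed by more than sampling noise (chi-square per degree of freedom 2.80 to 4.68). Members and lists were chosen with earlier results of these data known. Named were all members, up to 8 called ATF4 targets, up to 4 called genes per direction of other lists, and the 5 genes most like Ppp1r15a with at least 10 CPM. Other genes named, and the ratios between members, were chosen after their values were seen. Gene overlaps and distances come from GENCODE M21 on GRCm38, a different build from that of the counts. Alternatives were other scalings, filters and tools, a replicate block, an Xist term and leaving out each library; leaving out both Xist-rich libraries was added after the data were seen.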

Additional observations from a re-analysis of the deposited data

How the results depend on the processing

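Of the 6 tested members 3 were called lower as reported, 2 or 3 in every other setting, and 0 higher in all; Ddit3 accounted for each change. Leaving out 1 library gave 2 to 3 members and 5 to 6 other ATF4 targets lower. The 1 ATF4 target called higher with library size alone is Slc38a2; that setting moved the median of all genes from 0.0043 to 0.11 and turned the split of all calls from 514 lower and 347 higher to 336 lower and 1008 higher. Asns, never called, had a log2 fold change of 0.06 as reported, -0.084 without wild-type replicate 3, -0.045 without knockout replicate 1 and -0.093 without both Xist-rich libraries, and -0.084 to 0.21 over the single libraries left out; the cause was not tested. The ATF6 and XBP1 list went from 6 to 3 lower calls with library size alone, in DESeq2, and without wild-type replicate 2 or 3. Library size alone also called Atf6 higher. All calls numbered 861 as reported, 574 in DESeq2 and 562 to 782 when 1 library was left out, lowest without knockout replicate 1. Deviations from the group means correlated little between libraries of equal replicate number (r 0.054, -0.035 and 0.035). Libraries did not all correlate best with their own number. With 3 libraries per group these values cannot exclude pairing, and the Xist-rich libraries bear the same number in both groups. With the replicate block 3 members and 6 other ATF4 targets were lower, 0 higher, and 781 genes were called. A fall the size of that of Atf4 lay within the 95% interval of Asns (log2 -0.69 to 0.81). It also lay within the counting intervals of Sesn2 (ratio 0.273 to 1.04) and Atf3 (0.178 to 4.18). Chac1 and Trib3 had too few counts for such an interval.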
